A study of Mus musculus with 34 samples.

Results

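RNA of the mouse hippocampus 10 min after contextual fear conditioning was compared with RNA of control hippocampus. The comparison took 6 RNA libraries, 3 at 10 min and 3 control, out of 34 libraries in the series and 15 RNA libraries of hippocampal tissue, and it covered all 11531 genes that the deposited RNA table lists. Libraries of the 2 groups that carry the same replicate number were treated as pairs. In the 10 min group, C57BL/6N mice kept singly and handled beforehand explored a conditioning chamber and received an electric foot shock, and the hippocampi were frozen 10 min later. The control group was of the same strain and is labelled as having had no stimulus. The labels do not say whether the controls saw the chamber, so shock, chamber and handling on the day cannot be told apart, and no sex or age is given in the sources used here. Whether replicates came from separate mice, or from pools, is likewise not given, so the p-values here reflect no more than the spread among these libraries, which could be technical.

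Neurons that fire strongly copy a small set of genes into RNA within minutes, without first making protein. These immediate-early genes encode transcription factors, such as the AP-1 proteins Fos and Junb, and proteins that act directly at synapses, such as Arc. In the hippocampus, which is needed for remembering the place of a shock, they are the standard marks of cells recently active in learning. Messenger RNA already present in the cell is often stable for hours, so a short interval leaves most transcripts little time to change in level.

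The deposited values, called signal here, are whole numbers of reads divided by one number for each library. That number was between 276 and 386 in the 6 libraries, so a signal of 1 stands for about as many reads. Listed genes held 17921208 to 25515210 reads per library, with a median gene at 546 to 759 reads. Whether gene length enters the signal is not given, so levels are compared between libraries for one gene and not between genes. Tests were run on log2(signal + 1) with limma, a linear model fitted to all genes at once that included the replicate number, and p-values were adjusted over all genes tested (Benjamini-Hochberg, 2-sided, threshold 0.05). A change on this scale understates the fold, most for a gene with a signal under about 1 and less as the signal rises. It is still smaller at signals of about 2: Junb had a change of 0.37 here and 0.54 by voom, a weighted fit on the whole-number reads. Sizes of change at different signal levels, of genes or of lists, are therefore not directly comparable. Folds of the group means are given beside the change for the called genes and several low-signal genes. A gene with a mean signal of at least 1 over the 15 tissue RNA libraries was called past the filter, which held for 8061 genes, and the other 3470 are called low-signal genes and are given apart. Replicate numbers mattered: by the same model, 5279 of 8061 genes (65.5%) differed between numbers.

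Npas4, Fos, Junb and Arc, all immediate-early genes, were higher at 10 min. No gene was called lower with the deposited scaling and all groups fitted. Among the genes past the filter, 2 of 8061 passed the test and both were higher (0.0248%): Junb and Arc. When all 11531 listed genes were fitted together, 5 passed, all higher (0.0434%), Npas4 and Fos among them. Npas4 and Fos are low-signal genes, of which 2 of 3470 passed (0.0576%). In the lower direction limma called 0 of 8061 genes (0%), with 63 at an unadjusted p under 0.05 (0.782%), and 905 in the higher direction (11.2%). This imbalance depends on scaling. With libraries rescaled by TMM, 518 genes of both directions together had such a p, beside 968 under the deposited scaling. The share of genes with a change above 0 was then 50.9%, beside 71%. A weighted fit on the whole-number reads (voom) called the same 2 and 5 genes and none lower. Under TMM scaling, however, Pink1 was called lower (limma adjusted p = 0.0221 past the filter). With only the 2 groups fitted, 5 genes past the filter were called, 2 of them lower. Without the replicate number in the model, 0 genes passed in either fit (smallest adjusted p = 1 past the filter and 0.333 over all listed genes by limma), with 150 and 223 at an unadjusted p under 0.05.

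Npas4 encodes a transcription factor of the basic helix-loop-helix PAS family whose gene is switched on by calcium entry in neurons. Its RNA signal was 0.577, 0.639 and 0.442 at 10 min in replicates 1 to 3, against 0.144, 0.168 and 0.0825 in control. All 10 min libraries lay above all control libraries, as was so for 157 of 3470 low-signal genes (4.52%). These signals stand for 214, 216 and 122 reads at 10 min and 48, 65 and 26 reads in control, so counting error alone is sizeable in control. The mean was 0.553 ± 0.101 at 10 min and 0.132 ± 0.0442 in control (SD, n = 3 each), 4.20-fold higher, and within replicate numbers the ratios were 4.01, 3.79 and 5.36. The log2(signal + 1) change was 0.46 (SE 0.06, limma adjusted p = 0.00031 over all listed genes), and voom, which adds no such constant, gave 2.11 (SE 0.27, adjusted p = 0.000163). A fit with robust variance estimates gave an adjusted p of 0.311 for Npas4. The call held with each of the 6 libraries, or each replicate number, left out in turn, with adjusted p between 1.52e-06 and 0.0161.

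Fos, the AP-1 partner most used as a mark of recent neuronal activity, had signals of 0.585, 0.722 and 0.540 at 10 min, against 0.356, 0.324 and 0.352 in control. Again the groups did not overlap, and replicate 2 at 10 min was the highest. The mean was 0.616 ± 0.0948 at 10 min and 0.344 ± 0.0177 in control (SD, n = 3 each), 1.79-fold higher. The change on the log2(signal + 1) scale was 0.26 (SE 0.04, limma adjusted p = 0.00674 over all listed genes). The Fos call rested on few libraries: the adjusted p was 0.0748 without 10 min replicate 1, 0.323 without 10 min replicate 2, 0.165 without control replicate 2 and 0.0506 without control replicate 3. It was 0.0546 without replicate number 1 and 0.368 without number 2.

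Junb encodes another AP-1 subunit, which pairs with Fos. Its signal was 2.35, 2.81 and 2.51 at 10 min, against 1.70, 1.89 and 1.67 in control. The lowest 10 min library lay above the highest control library, as was so for 466 of 8061 genes past the filter (5.78%). Mean signal was 2.56 ± 0.233 at 10 min and 1.75 ± 0.118 in control (SD, n = 3 each), 1.46-fold higher, with ratios of 1.38, 1.49 and 1.504 within replicate numbers. The log2(signal + 1) change was 0.37 (SE 0.05, limma adjusted p = 0.00118 over the genes past the filter). Without replicate number 3 the adjusted p was 0.111, with a change of 0.36, while over all listed genes Junb still passed.

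Arc encodes a postsynaptic protein that promotes the uptake of AMPA-type glutamate receptors from the membrane, and its own mRNA travels into dendrites. Its signal was 4.64, 5.41 and 4.72 at 10 min, against 3.70, 3.19 and 3.86 in control. The groups did not overlap, and in replicate number 2 the 10 min library was the highest of the 6 and the control library the lowest. Ratios within replicate numbers were 1.25, 1.70 and 1.22. Mean signal was 4.93 ± 0.424 at 10 min and 3.58 ± 0.351 in control (SD, n = 3 each), 1.38-fold higher, with a log2(signal + 1) change of 0.37 (SE 0.06, limma adjusted p = 0.00324). The adjusted p was 0.169 without 10 min replicate 2, with a change of 0.32, and 0.127 without replicate number 2, with a change of 0.25.

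**Figure D1:**
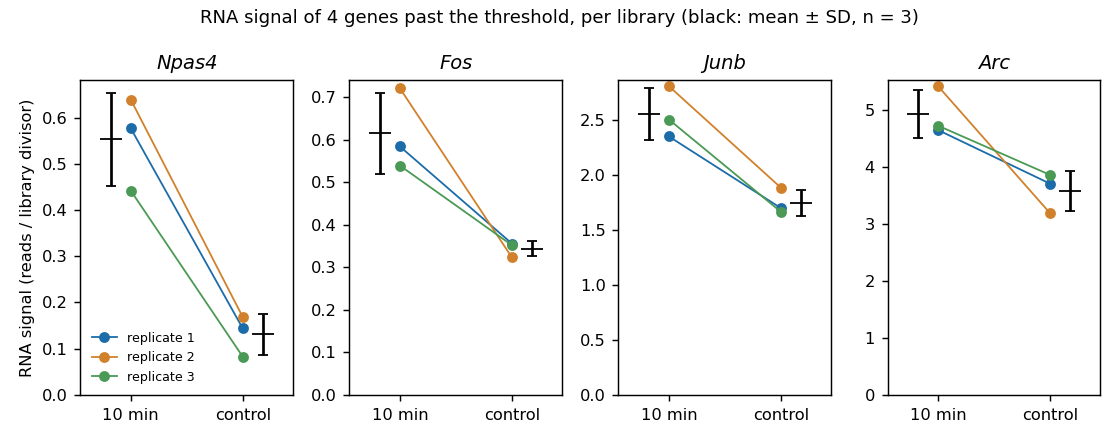
RNA signal (vertical axis, reads divided by one number per library) of Npas4, Fos, Junb and Arc in 10 min libraries on the left of each panel and control libraries on the right. Points of one replicate number share a colour and a line, and black bars give the mean ± SD of 3 libraries. Every line is higher at 10 min, and the groups do not overlap in any of the 4 panels.

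Promoter sequences are shown for these genes because they belong to a class whose promoters carry short elements read by activity-regulated factors. One of these is the cyclic AMP response element, whose core TGACG is bound by the CREB protein. RefSeq (GRCm38.p6) gave a promoter for 3 of the 4 genes, each given as the 250 bases before the annotated start, 5′ to 3′ on the gene's strand, with TGACG and its reverse complement CGTCA in capitals. The Npas4 window lies at chr19:4989972-4990221 (minus strand), the Fos window at chr12:85473640-85473889 (plus strand) and the Junb window at chr8:84978749-84978998 (minus strand).
Npas4: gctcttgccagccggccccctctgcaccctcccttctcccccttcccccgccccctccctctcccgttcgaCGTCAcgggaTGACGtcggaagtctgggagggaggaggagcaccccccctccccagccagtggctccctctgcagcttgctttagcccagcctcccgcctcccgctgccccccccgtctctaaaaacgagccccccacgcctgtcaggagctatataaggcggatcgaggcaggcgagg
Fos: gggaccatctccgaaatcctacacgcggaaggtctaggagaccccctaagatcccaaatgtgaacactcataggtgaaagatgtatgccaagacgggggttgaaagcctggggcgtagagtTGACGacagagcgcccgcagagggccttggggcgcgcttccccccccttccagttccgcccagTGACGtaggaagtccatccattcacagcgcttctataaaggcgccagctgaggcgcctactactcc
Junb: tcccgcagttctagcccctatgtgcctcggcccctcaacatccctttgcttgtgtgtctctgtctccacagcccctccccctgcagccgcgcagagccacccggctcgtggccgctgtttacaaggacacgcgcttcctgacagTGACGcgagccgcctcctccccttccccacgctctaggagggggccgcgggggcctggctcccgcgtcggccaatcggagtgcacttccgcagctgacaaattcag
Npas4 held TGACG with its first base 169 bases before the start and CGTCA 179 bases before it, Fos held TGACG at 129 and 66 bases before the start, and Junb held it at 106. Such a short motif is common: in windows that also include 50 bases after the start, TGACG occurred on either strand in 6837 of 32851 RefSeq promoters (20.8%) and for 3166 of 8725 listed genes with a window (36.3%). Among the listed early transcription factor genes with a window it occurred in 10 of 15, and the full palindrome TGACGTCA in 0 of 15. Arc is named without a sequence. A match describes the letters of these windows only, and whether any factor bound there was not measured.

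The plot of change against level places these genes among all 11531. Of the genes past the filter, 90% had a log2(signal + 1) change between -0.06 and 0.12, and 10 were above 0.2 and 2 below -0.2. Ttr, the transthyretin gene of the choroid plexus, stood far from the rest without passing (0.35, SE 0.37, limma adjusted p = 0.717).

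**Figure D2:**
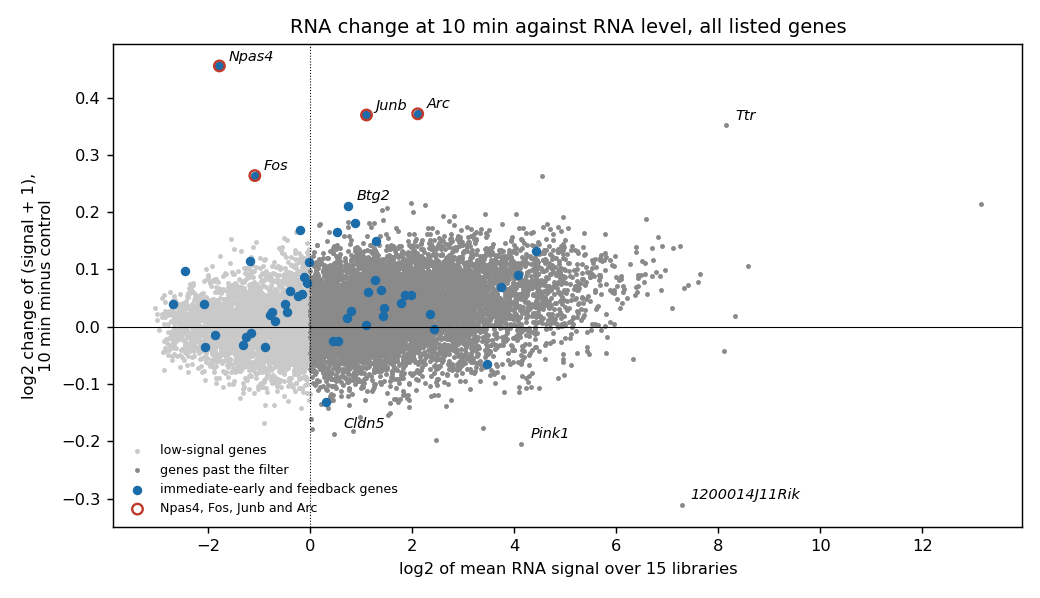
Change in log2(signal + 1), 10 min minus control (vertical axis), against the log2 of the mean RNA signal over 15 libraries (horizontal axis), 1 point per gene. Blue points are members of the immediate-early and feedback lists, red rings mark Npas4, Fos, Junb and Arc, and the dotted line separates low-signal genes from genes past the filter. The 4 ringed points lie above nearly all genes of similar level, while most blue points lie within the grey cloud.

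Members of the immediate-early transcription factor list other than these gave changes that did not pass. The list had 20 listed members, 10 of them past the filter, with 1 called (Junb) and 2 of the 10 low-signal members called (Npas4 and Fos). All 10 members past the filter had a change above 0, with a median of 0.06, beside 5725 of 8061 genes (71%) and a median of 0.03 over all genes past the filter. The 10 include Junb, and the list was chosen with earlier results of these data known, so this is no independent evidence. Egr1, a zinc finger factor needed for lasting synaptic change, had signals of 1.51, 1.85 and 1.47 at 10 min, against 1.37, 1.22 and 1.39 in control, with no overlap (log2 change 0.16, SE 0.06, limma adjusted p = 0.329). Nr4a2, an orphan nuclear receptor induced by activity, had 1.93, 1.95 and 2.14 at 10 min, against 1.63, 1.47 and 1.87 in control (0.18, SE 0.06, adjusted p = 0.315). These groups did not overlap either.

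Jun, the main partner of Fos, differed less, with 3.35, 3.54 and 3.45 at 10 min against 3.24, 3.31 and 3.42 in control (0.04, SE 0.04, adjusted p = 0.698). Of the low-signal members, Fosb, a close relative of Fos, had 0.154, 0.163 and 0.170 at 10 min and 0.0988, 0.127 and 0.165 in control. Ier2, a small nuclear early response protein, had 0.202, 0.204 and 0.257 at 10 min and 0.168, 0.137 and 0.121 in control, without overlap. Group means were 1.25-fold higher for Fosb and 1.56-fold higher for Ier2. Neither passed over all listed genes (limma adjusted p = 0.697 for Fosb and 0.369 for Ier2). Egr3 and Nr4a1, relatives of Egr1 and Nr4a2, had changes of 0.02 and 0.06 (1.04-fold and 1.09-fold) and overlapping groups (adjusted p = 0.912 and 0.692). Egr2 and Egr4 are not analysed here.

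Among immediate-early effectors, genes whose products act at synapses or in signalling, 1 of the 7 members past the filter was called (Arc), none of the 5 low-signal members was, and 5 of the 7 had a change above 0 (median 0.07). Ptgs2, the inducible cyclooxygenase of neurons, had 2.81, 2.10 and 2.56 at 10 min, against 2.51, 1.69 and 2.26 in control. Each 10 min library exceeded its own control while the groups overlapped (0.15, SE 0.04, limma adjusted p = 0.274). Homer1, a postsynaptic scaffold with a short activity-induced form, had 18.6, 15.7 and 16.2 at 10 min, against 16.7, 15.2 and 15.3 in control (0.09, SE 0.04, adjusted p = 0.407). Homer1 is listed once, without separate values for its forms. Gadd45g, a low-signal member linked to growth arrest and stress, had 0.949, 1.11 and 0.928 at 10 min and 0.799, 0.821 and 0.705 in control, without overlap (0.17, SE 0.05, adjusted p = 0.327 over all listed genes). Bdnf, the neurotrophin gene, had 3.79, 3.83 and 4.02 at 10 min and 3.80, 3.43 and 3.78 in control (0.06, SE 0.05, adjusted p = 0.600).

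Early feedback regulators, among them phosphatases that dampen the kinase signals that start the response, had 0 called of 9 members past the filter and 0 of 9 low-signal members. Their median change was 0.03, with 6 above 0. Btg2, a regulator of cell cycle exit and of mRNA decay, came closest, with 1.70, 2.04 and 1.72 at 10 min against 1.37, 1.49 and 1.43 in control. Its groups did not overlap (0.21, SE 0.06, limma adjusted p = 0.274). Dusp1, a phosphatase of MAP kinases, had 0.782, 0.885 and 0.707 at 10 min and 0.692, 0.725 and 0.724 in control (0.06, SE 0.05, adjusted p = 0.697). Dusp14, another such phosphatase, had lower values at 10 min in all replicate numbers, 1.12, 1.03 and 1.33 against 1.299, 1.448 and 1.34 in control (-0.13, SE 0.05, adjusted p = 0.334). The late-response list, genes that follow the first factors, had 0 of 15 called, 12 of 15 above 0 and a median of 0.06.

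Genes next in rank after the called ones came from no single class. Neto1, an auxiliary subunit of kainate receptors, had 7.70, 7.02 and 7.54 at 10 min, against 6.91, 5.76 and 6.45 in control (0.19, SE 0.04, limma adjusted p = 0.157). Klf12, a Krüppel-like repressor, had 4.11, 4.46 and 4.36 at 10 min, against 3.61, 3.55 and 3.55 in control (0.22, SE 0.05, adjusted p = 0.159). Sptb, a gene of the membrane skeleton best known from red blood cells, had 5.69, 5.11 and 4.85 at 10 min, against 4.37, 4.22 and 4.48 in control (0.21, SE 0.05, adjusted p = 0.159). In these 3 genes the groups did not overlap. Zfp106, an RNA-binding zinc finger protein, and Rps23, a protein of the small ribosomal subunit, had changes of 0.17 and 0.20 (adjusted p = 0.159 each).

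In the lower direction, Pink1, a kinase that marks damaged mitochondria, had the smallest p. Its signal was 16.9, 15.9 and 16.2 at 10 min, against 19.9, 17.96 and 18.9 in control, without overlap (-0.20, SE 0.04, limma adjusted p = 0.157). It passed when libraries were rescaled by TMM (adjusted p = 0.0221) and when only the 2 groups were fitted (0.0366). Cldn5, the tight junction protein of brain endothelium, had 1.26, 1.305 and 1.20 at 10 min, against 1.66, 1.56 and 1.48 in control (-0.19, SE 0.05, adjusted p = 0.274). Drd1a, the D1 dopamine receptor, had 0.981, 0.808 and 0.967 at 10 min, against 1.29, 0.982 and 1.17 in control (-0.16, SE 0.05, adjusted p = 0.315). Among all genes past the filter, 104 had all 10 min libraries below all control libraries (1.29%). Others named by rank were the small GTPase gene Arf2 (-0.14), the dipeptidase gene Pepd (-0.18), the calcium/calmodulin kinase gene Pnck (-0.16), Zcchc12 (-0.14) and 1200014J11Rik (-0.31), none of which passed (adjusted p = 0.279 to 0.319).

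The other low-signal genes gave no further call. Ranked by p, those higher at 10 min after Npas4 and Fos were Esyt1, which tethers the endoplasmic reticulum to the cell membrane, then Zbtb37, Ror1, a receptor for Wnt5a, then Rad18, Dapp1 and Nsun7. Esyt1 had 0.394, 0.503 and 0.442 at 10 min and 0.350, 0.264 and 0.286 in control, without overlap. Its mean was 1.49-fold higher, with a log2(signal + 1) change of 0.15 (SE 0.04, limma adjusted p = 0.232). In the lower direction Col6a1, a chain of collagen VI, led with 0.426, 0.396 and 0.388 at 10 min and 0.545, 0.674 and 0.517 in control, also without overlap (0.697-fold, log2 change -0.17, SE 0.04, adjusted p = 0.236). It was followed by BC017158, Pstk, Emc9, Ttll12, Zfp688, Rhpn1 and the copper chaperone gene Ccs, with adjusted p of 0.329 to 0.408. In the lower direction groups did not overlap for 130 of 3470 low-signal genes (3.75%).

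Beyond the immediate-early lists, 29 further lists of genes for signalling, synapses, metabolism and cell types had 0 members called, of genes past the filter and low-signal genes alike. The plot of list medians shows their size beside the median of all genes past the filter. All of them depend somewhat on scaling. Under the deposited scaling 71% of genes past the filter had a change above 0, while under TMM scaling 50.9% did and the median of all genes was 0.0012. Each list median is therefore to be read beside the 0.03 of all genes.

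Genes that respond to glucocorticoid hormone, which a foot shock releases, had a change above 0 in 10 of 11 members past the filter, with a median of 0.09 (0.05 under TMM). Tsc22d3, encoding the glucocorticoid-induced leucine zipper, had 6.79, 6.37 and 7.70 at 10 min, against 5.97, 6.05 and 6.25 in control, without overlap (0.16, SE 0.06, limma adjusted p = 0.334). Sgk1, a kinase induced by the same hormone, had 5.53, 5.74 and 5.51 at 10 min, against 4.35, 6.11 and 4.50 in control, where replicate 2 was the highest library of all (0.15, SE 0.08, adjusted p = 0.465). Per1, a clock gene with a glucocorticoid element, had 1.00, 1.23 and 1.101 at 10 min and 1.03, 1.31 and 1.03 in control (-0.0074, SE 0.05, adjusted p = 0.965). The circadian list had a median of 0.03 (11 of 16 above 0).

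The signalling lists upstream of these genes stayed near the median of all genes. Cyclic AMP, protein kinase A and CREB genes had a median of 0.04 (18 of 26 above 0), MAP kinase and SRF genes 0.03 (11 of 19), and calcium and calmodulin genes 0.03 (16 of 20, but a median of -0.01 under TMM). Genes for pausing and elongation of RNA polymerase II had a median of 0.01 (9 of 15, but -0.02 under TMM) and mRNA decay factors 0.03 (13 of 17). Among members of these lists past the filter, the smallest p-values belonged to Cnot4, a ubiquitin ligase tied to the CCR4-NOT deadenylase (0.17, SE 0.05), Adcy1, a calcium-stimulated adenylyl cyclase (0.14, SE 0.05), and Supt5, an elongation factor (-0.15, SE 0.05). Their limma adjusted p-values were 0.274, 0.327 and 0.328.

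Synaptic and channel genes had medians of about 0.06. These were glutamate receptors (13 of 16 above 0), GABA synthesis and receptors (15 of 19), postsynaptic scaffolds (15 of 19) and potassium channels (29 of 30), each at 0.03 under TMM. Kcnn2, a calcium-activated potassium channel, had 2.35, 2.21 and 2.54 at 10 min, against 1.88, 2.02 and 2.25 in control, higher in 3 of 3 replicate numbers with overlap (0.14, SE 0.05, limma adjusted p = 0.315). Dlg4, the main scaffold of excitatory synapses, had 16.8, 17.2 and 17.4 at 10 min and 15.4, 15.9 and 16.04 in control, without overlap (0.11, SE 0.04, adjusted p = 0.342).

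Ribosomal protein genes had a change above 0 in 71 of 71 members past the filter, with a median of 0.08 (0.05 under TMM), and 33 of 71 were higher in 3 of 3 replicate numbers, beside 2570 of 8061 of all genes (31.9%). The pairs did not do alike: the list's median change was 0.0069 in replicate number 1, 0.13 in number 2 and 0.12 in number 3. Rps24 had 24.6, 24.9 and 28.2 at 10 min, against 23.6, 21.7 and 22.9 in control (0.18, SE 0.06, limma adjusted p = 0.315). Ribosomal protein genes have many near-identical copies in the genome, and how reads matching several places were counted is not given, so these values are uncertain. Oxidative phosphorylation genes were split evenly (34 of 69 above 0, median -0.00028), proteasome genes had 12 of 31 above 0 (median -0.02) and housekeeping genes 4 of 11 (median -0.03). Actb, the cytoplasmic actin gene, had 31.8, 30.6 and 30.1 at 10 min and 32.9, 32.5 and 32.8 in control (-0.08, SE 0.05, adjusted p = 0.487). Chaperone genes had a median of 0.01 (11 of 19 above 0), which was -0.02 under TMM.

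**Figure D3:**
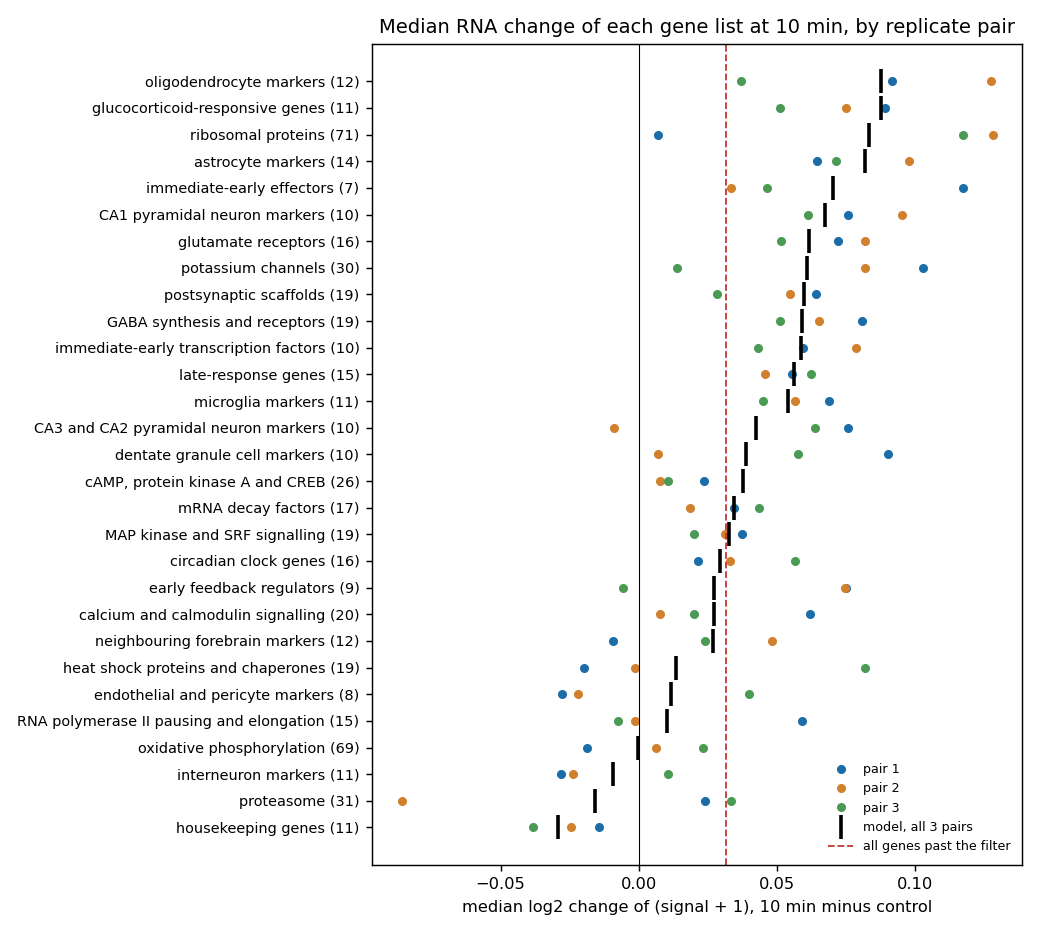
Median change in log2(signal + 1), 10 min minus control (horizontal axis), of 29 gene lists, with the number of members past the filter in brackets. Black ticks are medians from the model, coloured points medians within each replicate number, and the dashed line is the median of all genes past the filter, 0.03. Choroid plexus markers, which spread far beyond this axis, and the blood list, with 1 listed member, are not drawn. Ribosomal protein genes range from 0.0069 to 0.13 between pairs.

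Markers of hippocampal cell types had reads in both groups. Camk2a, a kinase of excitatory forebrain neurons, had 33.2, 30.5 and 40.2 at 10 min and 34.7, 30.0 and 40.1 in control. No listed member of any marker list was at 0 in any of the 6 libraries. That does not identify the tissue, since 0 of the 11531 listed genes were at 0 in any RNA library. Summed signal of CA1 pyramidal markers was 76.1 to 87.4 at 10 min and 72.0 to 85.6 in control, of dentate granule cell markers 50.11 to 55.2 at 10 min and 50.02 to 50.14 in control, and of interneuron markers 79.8 to 82.2 at 10 min and 76.9 to 83.5 in control. Median changes were 0.07 for CA1 (9 of 10 above 0), 0.04 for CA3 and CA2 (7 of 10), 0.04 for dentate (8 of 10) and -0.01 for interneuron markers (4 of 11). In bulk tissue, fewer cells of a type and less RNA per cell cannot be told apart. Neurod6, a factor of pyramidal neurons, had 9.12, 8.91 and 9.75 at 10 min and 8.61, 8.32 and 8.10 in control, without overlap (0.13, SE 0.04, limma adjusted p = 0.315).

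Glial markers lay above the median of all genes. Astrocyte markers had a change above 0 in 11 of 14 members (median 0.08), oligodendrocyte markers in 10 of 12 (0.09) and microglia markers in 11 of 11 (0.05). Under TMM these medians were 0.05, 0.05 and 0.02. Summed astrocyte signal was 555 to 714 at 10 min and 513 to 675 in control, summed oligodendrocyte signal 236 to 276 at 10 min and 208 to 264 in control, and summed microglia signal 35.7 to 48.4 at 10 min and 33.4 to 45.6 in control, so the groups overlapped in each. Aqp4, the water channel of astrocyte endfeet, had 21.8, 16.1 and 17.2 at 10 min, against 19.1, 14.4 and 15.7 in control, higher in 3 of 3 replicate numbers (0.15, SE 0.05, limma adjusted p = 0.322). Ermn, a cytoskeletal protein of myelinating oligodendrocytes, had 5.99, 6.17 and 5.73 at 10 min, against 5.45, 5.42 and 4.77 in control, without overlap (0.17, SE 0.05, adjusted p = 0.279). Endothelial and pericyte markers had a median of 0.01 (5 of 8 above 0), which was -0.01 under TMM. The blood list had 1 listed member, with a change of 0.10. Markers of neighbouring forebrain regions summed to 32.9 to 35.0 at 10 min and 31.3 to 33.0 in control, and the median change of the 12 past the filter was 0.03. The part of glial or regional RNA in the changes of other genes was not tested.

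Choroid plexus, the epithelium that lines the ventricle beside the hippocampus, varied most between libraries. Its 15 listed markers summed to 589, 641 and 208 at 10 min, against 804, 716 and 75.2 in control. The median change of the 10 past the filter was -0.32, -0.10 and 0.56 in replicate numbers 1 to 3. Replicate 3 of both groups was far lower than replicates 1 and 2. Ttr had 389, 485 and 141 at 10 min and 555, 549 and 41.3 in control, and Enpp2, a lysophospholipase of the same epithelium, 159, 114 and 51.4 at 10 min and 195, 121 and 26.2 in control (0.19, SE 0.15, limma adjusted p = 0.609). Without replicate number 3, 1 of 8061 genes passed (Arc) and 4 of 11531, which were Npas4, Junb, Arc and Fos.

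Gene by gene, the changes of the replicate numbers had little in common, which does not show that different genes responded in each. The median change of all genes past the filter was 0.04, 0.03 and 0.04 in numbers 1 to 3, and across genes the changes of different numbers correlated weakly, with r = 0.12 for numbers 1 and 2, -0.01 for 1 and 3 and 0.20 for 2 and 3 (8061 genes, which share libraries and are not independent replicates). By contrast, 10 min and control libraries of one number deviated together from their group means (r = 0.81, 0.63 and 0.78 for numbers 1 to 3).

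The times around 10 min show when the called genes were high. Junb had a mean signal of 1.75 ± 0.118 in control, 2.40 ± 0.450 at 5 min, 2.56 ± 0.233 at 10 min, 2.38 ± 0.116 at 30 min and 1.63 ± 0.0489 at 4 h (SD, n = 3 each). Arc had 3.58 ± 0.351 in control, 4.74 ± 0.411 at 5 min, 4.93 ± 0.424 at 10 min, 4.87 ± 0.280 at 30 min and 3.39 ± 0.184 at 4 h. Fos had 0.344 ± 0.0177 in control, 0.559 ± 0.110 at 5 min, 0.616 ± 0.0948 at 10 min, 0.615 ± 0.0548 at 30 min and 0.217 ± 0.0274 at 4 h. For these 3 genes neither 10 min against 5 min nor 30 min against 10 min passed (limma adjusted p = 1 for each), and their means at 4 h lay below those of control.

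Npas4 was the exception. Its signal at 30 min was 0.174, 0.242 and 0.194, against 0.577, 0.639 and 0.442 at 10 min, and the groups did not overlap. The 30 min libraries still lay above all control libraries (0.144, 0.168 and 0.0825), with a mean of 0.203 against 0.132 in control. The log2(signal + 1) change from 10 to 30 min was -0.37 (SE 0.06, limma adjusted p = 0.0153 over all listed genes). It did not pass with robust variance estimates or without the replicate block (adjusted p = 1 each), nor without 10 min replicate 2 (0.85), 30 min replicate 1 (0.263) or 30 min replicate 3 (0.154). At 10 min it was not separated from 5 min, where the libraries spread widely at 0.235, 0.323 and 0.629 (0.16, SE 0.06, adjusted p = 1). Over all genes, 10 min against 5 min gave 0 of 8061 and 0 of 11531 by limma (0%), with 224 and 389 at an unadjusted p under 0.05, and 0 of 8061 by voom. The comparison of 30 min with 10 min gave 0 of 8061 (259 at an unadjusted p under 0.05, 0 by voom) and 1 of 11531 (0.00867%), Npas4. When only these 2 groups were fitted, 17 of 8061 genes were lower at 30 min, against 12 in the fit of all groups without 10 min replicate 1 and 11 without replicate number 1. The 5 and 30 min comparisons share the 10 min libraries and are not independent of each other.

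**Figure D4:**
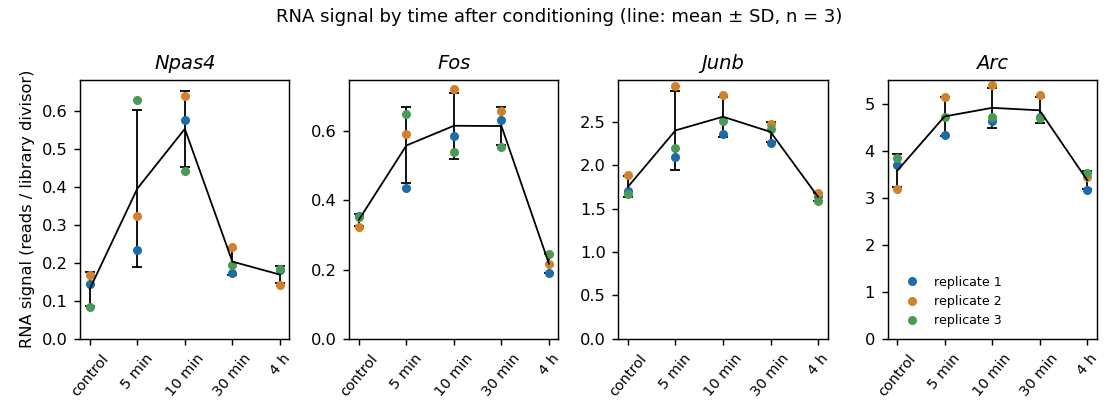
RNA signal (vertical axis, reads divided by one number per library) of Npas4, Fos, Junb and Arc in control and at 5, 10 and 30 min and 4 h after conditioning. Points are libraries, coloured by replicate number, and the line joins means with bars of ± SD (n = 3). Junb, Arc and Fos are high from 5 to 30 min. Npas4 is much lower at 30 min than at 10 min, with its 30 min libraries still above all control libraries.

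Ribosome footprints, reads of mRNA held within ribosomes, were made from the same groups. At 10 min, 5 of 11531 listed genes passed in footprints with the same model (0.0434%), all higher: Npas4 (0.56, SE 0.04), Arc (0.46, SE 0.07), Fos (0.42, SE 0.05), Junb (0.35, SE 0.06) and Btg2 (0.21, SE 0.04). Their adjusted p-values were 3.47e-07, 0.0119, 0.00136, 0.0173 and 0.0173 by limma. Sizes on this scale cannot be set against those in RNA where a gene's signal differs between the kinds of library. Btg2 had a change of 0.21 in both, but its group means were 1.27-fold higher in RNA and 1.57-fold higher in footprints. Npas4 had 0.46 in RNA and 0.56 in footprints, though its means were 4.20-fold higher in both. Without the replicate block only Npas4 passed in footprints (adjusted p = 0.00186), and without replicate number 1 likewise only Npas4. The footprint count was 15 without replicate number 2 and 20 when only the 10 min and control groups were fitted. Over the genes past the filter in footprints, Junb and Arc did not pass (adjusted p = 0.0565 each). Footprint signal of Npas4 was 0.741 ± 0.0920 at 10 min and 0.176 ± 0.0512 in control (SD, n = 3 each). In 1 model of both kinds of library, the footprint change differed from the RNA change for 0 of 7103 genes by limma (0%), with 405 at an unadjusted p under 0.05, and 0 by voom. These genes were past the filter in both kinds of library, so Npas4, Fos and Btg2 were not among them. With no filter the count was 0 of 11531. For Junb the difference was -0.02 (SE 0.08), for Arc 0.08 (SE 0.10) and for Nr4a2 -0.18 (SE 0.09, adjusted p = 0.919).

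**Figure D5:**
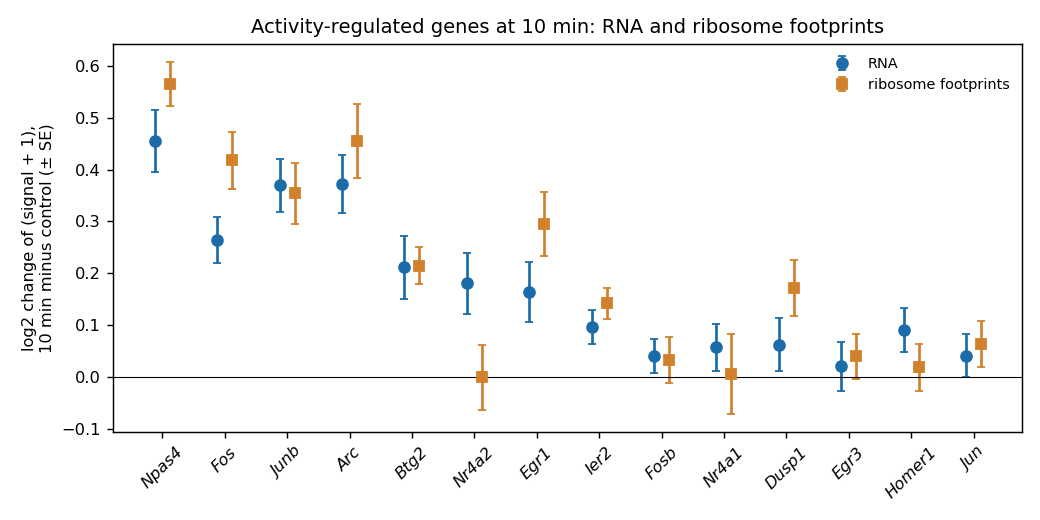
Change in log2(signal + 1), 10 min minus control (vertical axis), of activity-regulated genes in RNA (circles) and in ribosome footprints (squares), with bars of ± SE from the model. Npas4, Fos, Junb and Arc are above 0 in both, while Nr4a2 is at 0.18 in RNA and near 0 in footprints. On this scale Jun and Fosb are near 0 in both, but the scale understates folds, more so at lower signal. The gap between a circle and its square is therefore not a difference in fold. Group means of Fosb, a low-signal gene, were 1.25-fold higher in RNA and 1.16-fold higher in footprints.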

How the data were processed

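RNA and ribosome footprints of mouse hippocampus had been sequenced in 5 groups of 3 libraries each. The submitters' processing notes name CASAVA 1.8.2, Bowtie 1.1.1 and the mm9 build. Not given in the sources used here is how reads on several genes or either strand were counted. The deposited signal is a whole number of reads divided by 1 number per library, since multiplied by it every value lay within 0.001 reads of a whole number; what that number stands for is not given. The authors' mean and fold columns were not used.

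From this signal, log2(signal + 1) was fitted with limma 3.58.1 in R 4.3.3 (lmFit, eBayes with trend) over all 15 RNA libraries, with group and replicate number as terms. The replicate number was kept as a block because 10 min and control libraries of 1 number deviated together over 8061 genes (r = 0.81, 0.63 and 0.78), while the numbers come from the labels, which do not say what they mark. Genes past the filter had a mean signal of at least 1; a second fit took all 11531 listed genes. The comparison of footprints with RNA used the interaction in 1 model over genes past the filter in both. The fit was tested on simulated data. Whole-number reads were also fitted with voom, an alternative chosen after seeing the data, as a weighting and not as the main test. Values are mean ± SD with n = 3; SE is that of the model.

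One result is not reported here. The members and the 31 gene lists were chosen with earlier results of these data known. Named genes are up to 12 per direction past the threshold and changed the same way in 3 of 3 numbers, or, with fewer than 5, the 8 with the smallest unadjusted p, likewise for low-signal genes. To these were added the called members of each list, up to 3 others by p, and 22 activity-regulated and marker genes, of which 20 are listed. Promoter windows came from RefSeq (GRCm38.p6), a build other than mm9, and were used for sequence only.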

Additional observations from a re-analysis of the deposited data

Results flagged for a closer look

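Npas4 differed between adjacent times. Its log2(signal + 1) change in RNA from 10 to 30 min was -0.37 (SE 0.06, limma adjusted p = 0.0153 over all listed genes), with lower signal at 30 min in 3 of 3 replicate numbers. It stands out because the change itself passed a test between the 30 min and 10 min groups, and it was the only gene among 11531 that did. It did not pass with robust variance estimates, without the block, or when 10 min replicate 2, 30 min replicate 1, 30 min replicate 3 or replicate number 2 was left out (adjusted p = 0.154 to 1). Npas4 is a low-signal gene, at 122 to 216 reads per library at 10 min.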

How the results depend on the processing

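Genes called at 10 min against control numbered 2 past the filter and 5 over all listed genes. Without the replicate block these were 0 and 0, and by voom without the block 0 and 0. With no filter the first became 5, and with only the 2 groups fitted it was 5 (3 higher, 2 lower) and the second 7. TMM scaling gave 3 and 5 (Pink1 gained). Leaving out libraries or replicate numbers gave 1 to 2 and 2 to 5. The 10 against 5 min count of 0 became 7 with only those groups fitted. The 30 against 10 min count of 0 became 17 with only those groups and 1 with no filter, and ranged from 0 to 12 when libraries or numbers were left out. The footprint comparison gave 0 in all alternatives run. The causes of these differences were not tested. Without the block Npas4 also lost its call at 30 against 10 min, and footprint calls over all listed genes numbered 1 in place of 5 (1 to 15 with libraries or numbers left out); the block changed no other call.

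Left-out libraries turned the direction of Egr3 (-0.024 to 0.062), Per1 (-0.037 to 0.029), Ttr (-0.34 to 0.83), Enpp2 (-0.19 to 0.43), Calml4 (-0.13 to 0.0038) and Camk2a (-0.047 to 0.014), none called; voom without the block gave 0.0046 for Calml4. The planned count tests with edgeR and DESeq2 were not run. A filter at a mean of 0.1 kept all 11531 genes. Depth limits the low-signal genes: Npas4 had 26 to 65 reads per control library.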

Other observations

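Gm20594 took the largest share of reads in every RNA library, 13.5 to 15.5% at 10 min and 12.04 to 14.1% in control. Its signal was 9935, 8348 and 10086 at 10 min, against 9334, 7104 and 8086 in control, higher in 3 of 3 replicate numbers with overlap (log2 change 0.21, SE 0.13, limma adjusted p = 0.509). 1200014J11Rik, listed with 231, 131 and 50.4 at 10 min and 326, 147 and 60.7 in control, differed more between replicate numbers than between groups; it was lower in 3 of 3 numbers and did not pass (adjusted p = 0.297), except when only the 2 groups were fitted (0.0214).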
